A study of Mus musculus with 6 samples.

Results

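The oxygen-sensing genes *Hif1a*, *Epas1*, *Hif3a*, *Arnt*, *Arnt2*, *Vhl*, *Egln1*, *Egln2*, *Egln3* and *Hif1an* were followed through lists of open and of Tfcp2l1-bound chromatin in mouse embryonic fibroblasts (MEFs). These 10 genes, of 21911 protein-coding genes in the annotation, were chosen by name as the HIF factors, the HIF hydroxylases and the ligase subunit that read oxygen. For each gene, every ATAC-seq peak within the gene or 5 kb of it and every ChIP-seq peak within 200 kb of a transcription start site (TSS) was taken. ATAC-seq marks open DNA by the cuts of the Tn5 transposase, and the ChIP-seq was made with an antibody against Tfcp2l1, a transcription factor.

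All MEFs were of strain C57BL/6J, and those for ATAC-seq came from E13.5 embryos. In normoxia (20% oxygen) the ATAC-seq libraries were made from MEFs at passage 1, called Norm-Pro, and from senescent MEFs, called Norm-Sen. In hypoxia (3% oxygen) they were made from MEFs at passage 1, called Hyp-Pro, and from immortalized MEFs, called Hyp-Imm. The ChIP-seq libraries came from senescent MEFs in 20% oxygen (ChIP Norm) and from immortalized MEFs in 3% oxygen (ChIP Hyp). The comparisons ask how open chromatin differs between early and late cultures at each oxygen level, and between oxygen levels at each age of the culture. There was 1 library per condition, the sources used here do not give the number of embryos behind a library, and no test between conditions was possible. Late culture was senescent in 20% oxygen and immortalized in 3% oxygen, so oxygen and cell fate cannot be told apart in late cultures.

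Labels and names of the deposited files conflict for all 4 ATAC-seq libraries. The name of the file gives Hyp-Imm for the label Norm-Pro, Hyp-Pro for Norm-Sen, Norm-Pro for Hyp-Pro and Norm-Sen for Hyp-Imm. The names of the peaks inside the files carry a tag that the libraries labelled Norm-Pro and Norm-Sen share, and another that Hyp-Pro and Hyp-Imm share, and what the tags mean is not given. Libraries are called here by their labels, and each direction below holds for those labels. The ATAC-seq lists held between 37770 (Hyp-Imm) and 69122 (Norm-Pro) peaks, and the ChIP-seq lists 393 (ChIP Norm) and 612 (ChIP Hyp). The background across the genome, solved from the fold and p-values of the peaks, was 1.24, 1.77, 0.956 and 0.445 reads in the order of the ATAC-seq labels, so that Hyp-Imm was the shallowest library. Of 12 fibroblast marker genes, between 5 (Hyp-Imm) and 8 (Hyp-Pro) had a promoter peak, and *Col3a1* and *Prrx1* had none in any library. Lists of 4 or 5 epithelial, endothelial, blood, muscle and neural markers had from 0 to 3 each. Over all protein-coding genes 35.5% had a promoter peak in Hyp-Imm and 49.5% in Hyp-Pro, and the marker counts were not tested against these shares. The part of other cells in the values below was not tested.

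Cells read oxygen through hydroxylation. In air the prolyl hydroxylases Egln1, Egln2 and Egln3 mark the HIF alpha subunits Hif1a, Epas1 (HIF-2 alpha) and Hif3a, the von Hippel-Lindau protein Vhl then recruits a ubiquitin ligase, and the subunit is degraded, while Hif1an hydroxylates an asparagine, which hinders binding of the coactivators p300 and CBP. In low oxygen the alpha subunits persist, pair with Arnt or Arnt2 and bind hypoxia response elements, whose core is ACGTG or GCGTG, and *Egln1* and *Egln3* are themselves known HIF targets. This control acts largely on protein, and an open promoter does not measure HIF activity or transcript level.

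The stretches on which the results turn are shown on the strand of the gene, 5′ to 3′, in lower case, with each ACGTG or GCGTG, read on either strand, in capitals. The intronic regions of *Egln3* (chr12:54192099-54192303, 205 bp, minus strand) and *Egln1* (chr8:124926639-124926854, 216 bp, minus strand) are shown whole, because they were the open sites away from a promoter that were found in more than 1 library and absent from Hyp-Imm in the hydroxylase genes. For *Hif1a* (chr12:73907617-73907866, plus), *Egln3* (chr12:54203875-54204124, minus), *Egln1* (chr8:124949325-124949574, minus) and *Egln2* (chr7:27166803-27167052, minus) the 250 bases before the TSS are shown, as the promoter with the most reads in 3 of the 4 libraries, the hydroxylase promoter found in every library, the one absent only from Hyp-Imm, and the one found only in Norm-Pro. Coordinates are those of GRCm38, and the letters are those of the RefSeq assembly of that build.
Egln3 intron 1: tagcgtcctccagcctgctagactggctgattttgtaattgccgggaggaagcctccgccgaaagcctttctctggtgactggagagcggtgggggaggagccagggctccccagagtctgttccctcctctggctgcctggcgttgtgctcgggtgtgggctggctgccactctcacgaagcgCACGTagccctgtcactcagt
Egln1 intron 1: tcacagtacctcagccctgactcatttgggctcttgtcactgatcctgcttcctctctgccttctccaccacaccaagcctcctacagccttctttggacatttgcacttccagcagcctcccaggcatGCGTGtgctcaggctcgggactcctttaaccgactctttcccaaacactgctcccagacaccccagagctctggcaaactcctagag
Hif1a upstream: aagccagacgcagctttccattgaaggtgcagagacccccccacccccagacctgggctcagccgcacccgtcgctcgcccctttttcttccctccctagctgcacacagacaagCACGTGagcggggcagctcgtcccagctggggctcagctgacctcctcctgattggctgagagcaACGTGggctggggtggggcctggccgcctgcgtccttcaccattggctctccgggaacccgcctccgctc
Egln3 upstream: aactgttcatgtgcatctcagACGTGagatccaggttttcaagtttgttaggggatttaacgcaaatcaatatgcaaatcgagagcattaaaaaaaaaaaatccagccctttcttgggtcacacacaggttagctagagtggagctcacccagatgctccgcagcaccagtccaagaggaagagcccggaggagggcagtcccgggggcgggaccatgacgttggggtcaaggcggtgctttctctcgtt
Egln1 upstream: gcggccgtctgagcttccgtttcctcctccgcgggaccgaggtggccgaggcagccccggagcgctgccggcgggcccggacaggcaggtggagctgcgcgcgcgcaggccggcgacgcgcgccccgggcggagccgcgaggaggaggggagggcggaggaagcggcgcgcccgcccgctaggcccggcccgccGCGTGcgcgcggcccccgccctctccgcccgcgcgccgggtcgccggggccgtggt
Egln2 upstream: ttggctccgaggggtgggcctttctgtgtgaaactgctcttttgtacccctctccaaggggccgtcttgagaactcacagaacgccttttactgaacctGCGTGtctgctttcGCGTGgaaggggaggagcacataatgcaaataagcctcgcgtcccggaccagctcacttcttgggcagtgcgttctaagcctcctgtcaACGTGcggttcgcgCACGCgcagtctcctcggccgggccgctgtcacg

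Most of the oxygen-sensing genes had an open promoter in every library but Hyp-Imm. A promoter was called open when a peak lay within 1 kb of any annotated TSS. This was so for 9 of 10 genes in Norm-Pro (exact 95% Clopper-Pearson interval 55.5 to 99.7%, against 54.8% of all protein-coding genes), 8 in Norm-Sen (44.4 to 97.5%, against 53.1%), 9 in Hyp-Pro (55.5 to 99.7%, against 49.5%) and 5 in Hyp-Imm (18.7 to 81.3%, against 35.5%). The intervals give only the counting error of 10 genes drawn at random. These genes were chosen by name, so the intervals are no test against all genes. In Norm-Sen and Hyp-Imm the interval held the share of all genes, and in Norm-Pro its lower end (55.5%) lay close to that share (54.8%). The part of CpG content and of the number of TSS per gene in these shares was not tested. In each library the share of these genes was above that of all genes. Among peaks with a −log10 q of at least 5 the direction turned in Hyp-Imm, where 1 of the 10 genes had an open promoter against 11.5% of all genes.

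*Hif1a*, *Arnt*, *Arnt2* and *Egln3* were open in all 4 libraries, a pattern of 26.8% of all genes. *Epas1*, *Vhl* and *Egln1* were open in every library but Hyp-Imm, as were 12.1% of all genes. *Hif3a* was open in Norm-Pro and Hyp-Pro, a pattern shared with 2.62% of all genes. *Egln2* was open in Norm-Pro alone, as were 4.46%, and *Hif1an* in every library but Norm-Pro, as were 0.972%. Read by the names of the files, the library with 5 open promoters is the senescent one in 20% oxygen and not the immortalized one.

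**Figure D1:**
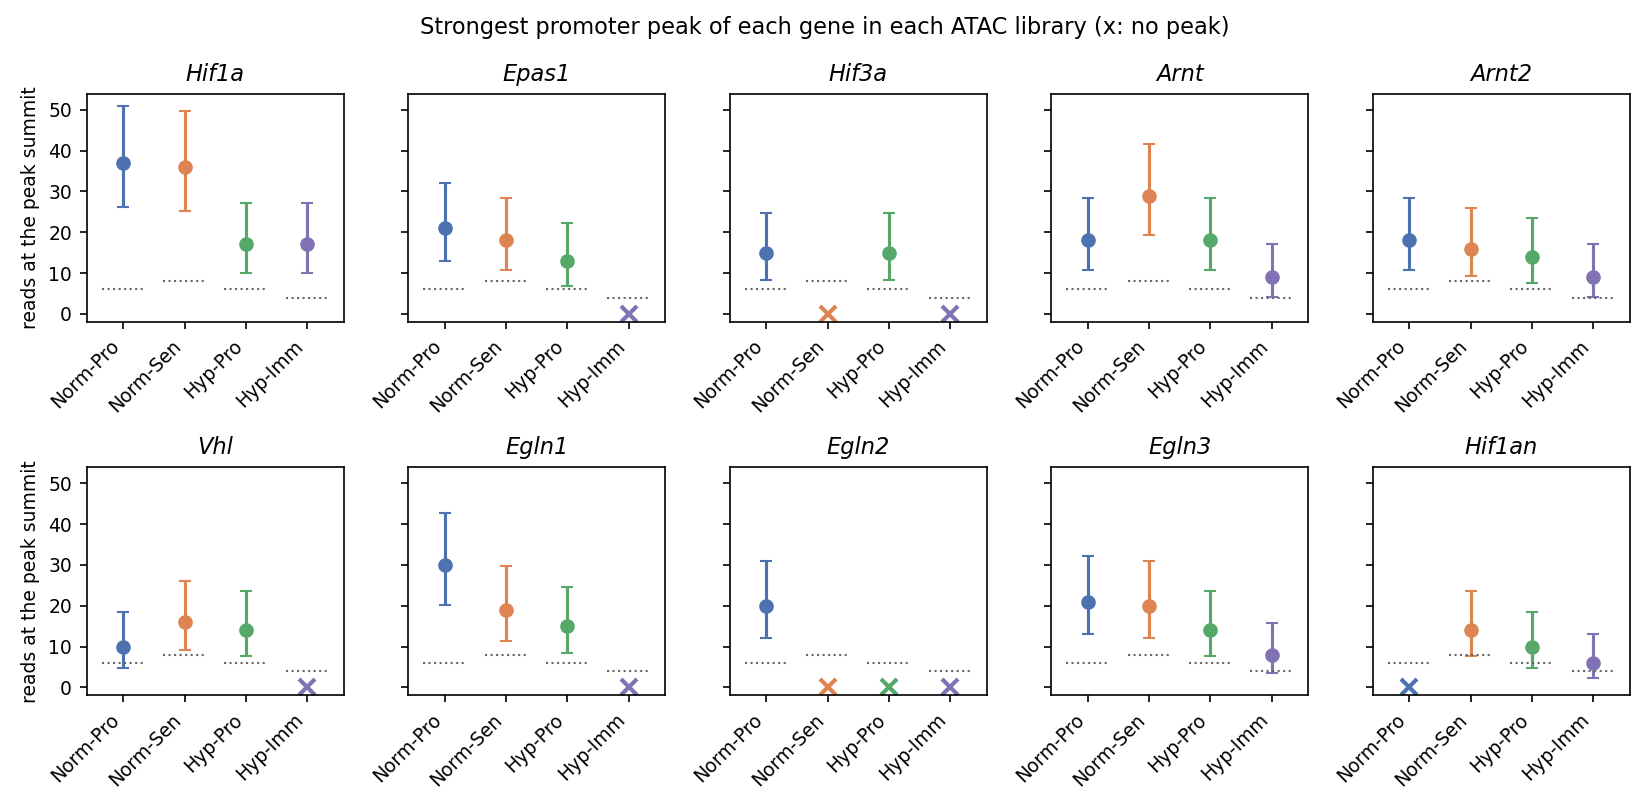
Reads at the summit of the strongest promoter peak (y axis) of each of the 10 genes in each ATAC-seq library (x axis), with exact 95% Poisson intervals; a cross marks no peak and a dotted line the fewest reads called at the background of the library (6, 8, 6 and 4). *Hif1a* reached 37 reads in Norm-Pro and 36 in Norm-Sen, and 5 genes have a cross in Hyp-Imm.

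*Hif1a*, the oxygen-regulated subunit of HIF-1, had the promoter with the most reads of the 10 genes in every library but Hyp-Pro, where *Arnt* had 18 and *Hif1a* 17. The main promoter, chr12:73907664-73908127, spans the TSS of the principal transcript and lies 6.5 kb inside the annotated gene, since a longer transcript starts at 73901375. Its summit held 37 reads in Norm-Pro and 36 in Norm-Sen, and 17 in each of Hyp-Pro and Hyp-Imm. The libraries labelled 20% oxygen were thus higher in raw reads than those labelled 3%, as they were in genome background.

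Within its list this peak stood near the top in every library. The fold enrichment of its summit over local background was 10.3 in Norm-Pro and 8.69 in Norm-Sen, and 6.64 in Hyp-Pro and 9.09 in Hyp-Imm, with −log10 q of 24.1, 20.3, 8.27 and 11.3. It ranked 151st of 69122 peaks by fold in Norm-Pro (top 0.218%), 311th of 61408 in Norm-Sen (0.506%), 3712th of 47523 in Hyp-Pro (7.81%) and 311th of 37770 in Hyp-Imm (0.823%). The Hyp-Pro peak was therefore the lowest in rank of the 4. In that library the promoter was split, with a further peak of 12 reads over exon 1.

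The upstream bases of *Hif1a* printed above hold a CACGTG, which reads as the core on either strand, and a further ACGTG. Another peak in intron 1, chr12:73908417-73908657, had 16 reads in Norm-Sen and 12 in Hyp-Pro and none in the other libraries. The upstream start at 73901375 had a peak in Norm-Sen alone, with 12 reads and a fold of 4.29. A GC-rich region beyond the 3′ end of the gene, chr12:73949705-73949951 with 70.9% GC and 28 CpG dinucleotides, had 10 reads in Norm-Pro and 11 in Norm-Sen and no peak in Hyp-Pro or Hyp-Imm. From the libraries with that peak alone, at the scale described below, about 8.53 reads would be expected there in Hyp-Pro and 5.06 in Hyp-Imm. The fewest called at genome background were 6 and 4.

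*Epas1*, the alpha subunit of HIF-2, had a promoter peak at chr17:86753451-86753702, directly before its TSS. The summit held 21 reads in Norm-Pro and 18 in Norm-Sen, and 13 in the Hyp-Pro library, and Hyp-Imm had no peak. Its rank by fold went from the top 10.9% of the list in Norm-Pro to 40.3% in Norm-Sen and 84.2% in Hyp-Pro. The lowest fold was 4.09, in Hyp-Pro.

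The other 5 regions of *Epas1* were each found in 1 library. An intron 1 site 7.2 kb from the start (chr17:86760876-86760981, 10 reads) was in Norm-Pro and holds ACGTG once on each strand. Another in intron 1 at 22.4 kb (14 reads) was in Norm-Sen, and an intron 6 site at 63.0 kb (11 reads) was in Hyp-Pro. Toward the 3′ end, Norm-Pro had a peak over exon 10 (16 reads) and Hyp-Imm one in intron 9 (8 reads) that did not touch. No *Epas1* region other than the promoter was thus shared.

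*Hif3a*, the alpha subunit whose short forms can oppose the others, had no promoter site in more than 1 library. Norm-Pro had a peak of 15 reads at an internal start, chr7:17051050-17051170, with a fold of 4.58. Hyp-Pro had peaks at other starts, one of 15 reads at chr7:17056139-17056238 and one of 11 reads at chr7:17062367-17062478, which is the 5′ end of the gene and ranked in the bottom of the list (95.3% by fold). Norm-Sen and Hyp-Imm had none. So the open promoter counted for *Hif3a* in Norm-Pro and in Hyp-Pro was not the same site.

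Of the 8 regions within 5 kb of *Hif3a*, 3 lie beyond its 3′ end at the start of the neighbour *Ppp5c*, a phosphatase gene. The one found in most libraries, chr7:17027769-17027981, had 18 reads in Norm-Pro, 17 in Hyp-Pro and 10 in Hyp-Imm. In Norm-Sen the peak there (20 reads) lay beside it without touching. These values belong to the start of *Ppp5c* and say nothing of a *Hif3a* promoter.

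*Arnt*, the partner of all alpha subunits, was open at chr3:95434163-95434735 in all 4 libraries. The summit held 18 reads in Norm-Pro and 29 in Norm-Sen, and 18 in Hyp-Pro and 9 in Hyp-Imm. Its fold was 6.99, 9.29, 8.68 and 6.25 in that order. It ranked in the top 3.80% of the Norm-Pro list, 0.311% in Norm-Sen, 1.54% in Hyp-Pro and 9.65% for Hyp-Imm. In Norm-Sen and in Hyp-Pro it was the strongest promoter of the 10 genes by fold, whereas *Hif1a* was the strongest in Norm-Pro and in Hyp-Imm. Its 3 other regions, at 19.5, 23.1 and 63.0 kb, were each in 1 library, Norm-Pro, Hyp-Pro and Norm-Sen. The last lies beyond the 3′ end, 1832 bp from the start of the neighbour *Ctsk* and 8019 bp from the nearest *Arnt* start.

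*Arnt2*, the relative of *Arnt* best known from neurons, carried the most peaks, 22 of 84, in the longest of the genes (163899 bp). The promoter was open in every library but as neighbouring sites that did not all touch. The region over exon 1 and the TSS, chr7:84409961-84410334, had 18 reads in Norm-Pro and 16 in Norm-Sen, and 9 in Hyp-Imm. The region just inside, chr7:84409679-84409941, had 13 reads in Norm-Pro, 14 in Hyp-Pro and 7 in Hyp-Imm. Hyp-Pro thus had only the inner site and Norm-Sen only the outer one.

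The other 14 *Arnt2* regions lie in introns. An intron 1 site at 44.5 kb was in Norm-Sen (15 reads) and in Hyp-Imm (6 reads), and the other 13 were each in 1 library. The inner and outer promoter sites had 32 and 49 CpG dinucleotides, and no intronic site beyond them had more than 3.

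*Vhl*, the substrate receptor of the ligase, had 1 region in all, at its promoter, chr6:113623907-113624374. The summit held 10 reads in Norm-Pro and 16 in Norm-Sen, and 14 in the Hyp-Pro library, with folds of 4.03, 4.24 and 5.77. By rank it was thus highest in Hyp-Pro, in the top 16.9% of the list, against 52.4% in Norm-Sen and 68.4% in Norm-Pro. Hyp-Imm had no peak within the gene or 5 kb of it. The region runs over exon 1 and holds the core 4 times, more than any other region of the 10 genes.

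*Egln1* (PHD2), the main prolyl hydroxylase for Hif1a, had a promoter region at chr8:124949043-124949513 in every library but Hyp-Imm. The summit held 30 reads in Norm-Pro and 19 in Norm-Sen, and 15 in the Hyp-Pro library. Its rank by fold was in the top 1.84% in Norm-Pro (fold 7.91), 58.8% in Norm-Sen (4.11) and 71.2% in Hyp-Pro (4.42). Ranked by −log10 q it was in the top 0.978%, 23.8% and 37.5%. By either measure the promoter stood highest in its list in Norm-Pro, while in Norm-Sen and Hyp-Pro it lay below the middle by fold and above it by −log10 q. In Hyp-Imm, at the mean scaled level of the other libraries, 10.9 reads would be expected. The region is 86.6% GC with 93 CpG dinucleotides, the most of the 50 regions.

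The intron 1 site of *Egln1*, 22.6 kb from the start and printed above, was found in the same libraries as its promoter. By fold this site ranked highest in Hyp-Pro (top 30.6% of the list), then Norm-Pro (41.1%) and Norm-Sen (84.4%), unlike the promoter, which stood highest in Norm-Pro. The intron site had 18 reads in Norm-Pro and 17 in Norm-Sen, and 16 in the Hyp-Pro library, and no peak in Hyp-Imm, where 8.81 reads would be expected. It was the only region of the 10 genes outside promoters and the start of *Ppp5c* in 3 libraries. The sequence holds 1 GCGTG and 1 TGANTCA with C or G in the middle, the binding sequence of AP-1, which 4.37% of all regions hold. Hyp-Imm had instead peaks of 7 reads at 30.2 kb in intron 1 and of 7 reads at 36.0 kb in intron 3, which no other library had. The fewest reads called at genome background in that library were 4.

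*Egln2* (PHD1) had peaks in Norm-Pro alone. They lie within 1 kb of its start in intron 1, chr7:27166358-27166595 with 20 reads and chr7:27166215-27166330 with 16. The stronger had a fold of 3.95, in the lower part of its list (80.4%), over a local background of 4.32 reads, and was the lowest of the promoters in Norm-Pro by fold, though not by reads or by −log10 q (4.76, against 2.79 for *Vhl*). The 250 bases before its TSS, which no peak covered, hold the core 4 times.

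*Egln3* (PHD3) was the hydroxylase gene with an open promoter in all 4 libraries. The region chr12:54203752-54204024 held 21 reads at its summit in Norm-Pro and 20 in Norm-Sen, and 14 in Hyp-Pro and 8 in Hyp-Imm. Its ranks by fold were in the top 4.14%, 9.65%, 11.1% and 29.6% of these lists. The order of reads follows the order of depth except between Norm-Pro and Norm-Sen. The peak region holds no core, while 1 ACGTG lies upstream of it in the bases printed.

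In human cells an element in the first intron of *EGLN3* is known to bind HIF. In these MEFs the only other region of *Egln3* lay in intron 1, 11.7 kb from the start. It was found in both libraries labelled 20% oxygen, which had the longest lists, and in neither labelled 3%. The share of all regions with that pattern was not computed. The region had 14 reads in Norm-Pro (fold 4.85, −log10 q 4.78) and 15 in Norm-Sen (fold 4.64, −log10 q 4.70). Neither peak reached the −log10 q of 5 used as a stricter minimum. From the libraries with the peak alone, a mean that leans high, 11.8 reads would be expected in Hyp-Pro and 6.99 in Hyp-Imm. The fewest called at genome background were 6 and 4. A local background above that of the genome raises the number needed. At this site it was 2.09 reads in Norm-Pro and 2.45 in Norm-Sen, against 1.24 and 1.77 over the genome. Whether the site was closed in 3% oxygen was not tested. Its sequence holds the core once, as CACGT, and whether it is the counterpart of the human element was not tested. Read by the names of the files, the libraries with this region are those in 3% oxygen.

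*Hif1an* (FIH), the asparaginyl hydroxylase, had 1 region, chr19:44562715-44562944 over its TSS, with 14 reads in Norm-Sen and, at 3% oxygen, 10 in Hyp-Pro and 6 in Hyp-Imm. Norm-Pro, the list with the most peaks, had none, where 12.2 reads would be expected. The Hyp-Imm peak had a fold of 3.93 and a −log10 q of 1.98 and was the lowest of the promoters in that library by fold, −log10 q and reads. Counted by gene, *Hif1an* in Norm-Pro was the only case of a promoter found in the 3 other libraries and absent from one other than Hyp-Imm. Counted by site, the inner promoter site of *Arnt2* was absent only from Norm-Sen and the outer only from Hyp-Pro. By fold, the lowest promoters in the remaining libraries were those of *Epas1* in Hyp-Pro and *Egln1* in Norm-Sen, whereas by reads they were those of *Hif1an* in both (10 and 14).

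**Figure D2:**
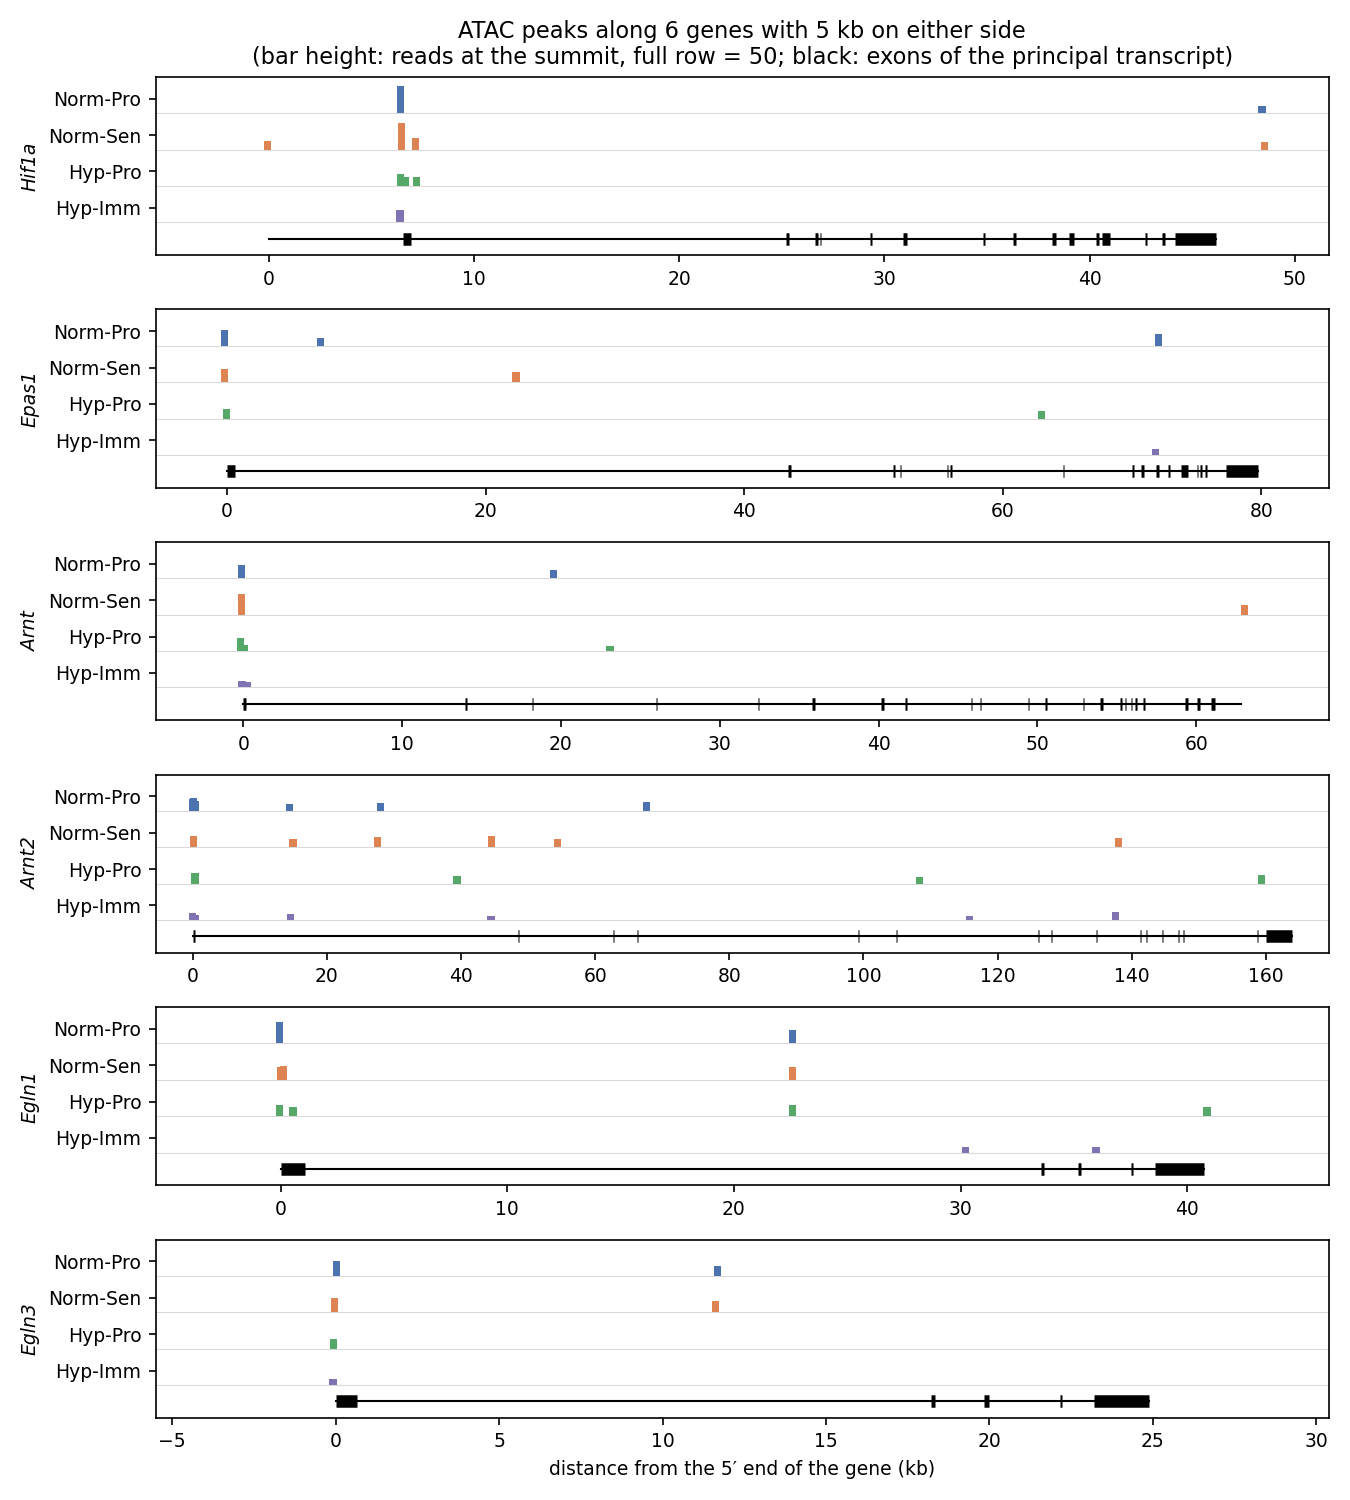
ATAC-seq peaks along *Hif1a*, *Epas1*, *Arnt*, *Arnt2*, *Egln1* and *Egln3*, by distance of the summit from the 5′ end of the gene (x axis, kb); each row is a library, bar height is the number of reads at the summit with 50 filling a row, bars are wider than the peaks, and black boxes are exons. The promoters repeat across rows, the intron 1 site of *Egln1* at 22.6 kb is in 3 rows and that of *Egln3* at 11.7 kb in 2, and most other bars stand in 1 row.

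Together the 10 genes had 84 peaks, 44 of them within 1 kb of a TSS, with 22 in Norm-Pro and 22 in Norm-Sen, and 24 in Hyp-Pro and 16 in Hyp-Imm. Merged where they touched, they gave 50 regions, of which 17 lay at a TSS of their own gene. Of these regions 35 were in 1 library (70.0%, against 80.6% of the 93704 regions within 5 kb of a protein-coding gene), 4 in 2 (against 9.19%), 8 in 3 (16.0%, against 5.11%) and 3 in all 4 (6.00%, against 5.12%). The 3 regions in all 4 libraries were the promoters of *Hif1a*, *Arnt* and *Egln3*. Of the 8 regions in 3 libraries, 6 were promoters, the others being the *Egln1* intron and the start of *Ppp5c*. The regions in 1 library were spread over the libraries, 9 in Norm-Pro and 8 in Norm-Sen, and 11 in Hyp-Pro and 7 in Hyp-Imm.

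Between early and late cultures in 20% oxygen, equal numbers of regions were found in 1 library of the pair. In Norm-Sen and not Norm-Pro were 11 of 32 regions (34.4%, against 38.3% over all genes), in Norm-Pro and not Norm-Sen 11 (34.4%, against 43.6%), and in both 10 (31.2%, against 18.1%). Those in Norm-Sen alone of the pair included the promoter of *Hif1an* and the upstream start and intron 1 site of *Hif1a*. Those in Norm-Pro included both *Egln2* sites and the internal *Hif3a* start. The promoters of *Hif1a*, *Epas1*, *Arnt*, *Arnt2*, *Vhl*, *Egln1* and *Egln3*, the intron 1 sites of *Egln1* and *Egln3* and the 3′ region of *Hif1a* were in both.

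In 3% oxygen more of the regions lacked a peak in the late library than in the early one. In Hyp-Pro and not Hyp-Imm were 16 of 31 regions (51.6%, against 51.7%), in Hyp-Imm and not Hyp-Pro 9 (29.0%, against 34.4%), and in both 6 (19.4%, against 13.9%). The share in Hyp-Pro alone of the pair was thus near that of all genes. Those without a peak in Hyp-Imm, the shallower library, included the promoters of *Epas1*, *Vhl* and *Egln1* and the intron of *Egln1*. Of the 9 in Hyp-Imm alone of the pair none was at a promoter apart from the outer *Arnt2* site.

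Between oxygen levels at passage 1, 13 of 34 regions were in Hyp-Pro and not Norm-Pro (38.2%, against 31.5%), 12 in Norm-Pro and not Hyp-Pro (35.3%, against 50.2%) and 9 in both (26.5%, against 18.3%). In late cultures 9 of 30 were in Hyp-Imm and not Norm-Sen (30.0%, against 29.1%), 15 in Norm-Sen and not Hyp-Imm (against 58.5%) and 6 in both (20.0%, against 12.4%). The share in both libraries was above that of all genes in each of the 4 contrasts. The *Egln3* intron and the 3′ region of *Hif1a* were in the library labelled 20% oxygen of either pair and not in the other, which had the shorter list. Each of these peaks had a −log10 q below 5. These contrasts share libraries, and the counts are set beside those of all genes without a test.

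**Figure D3:**
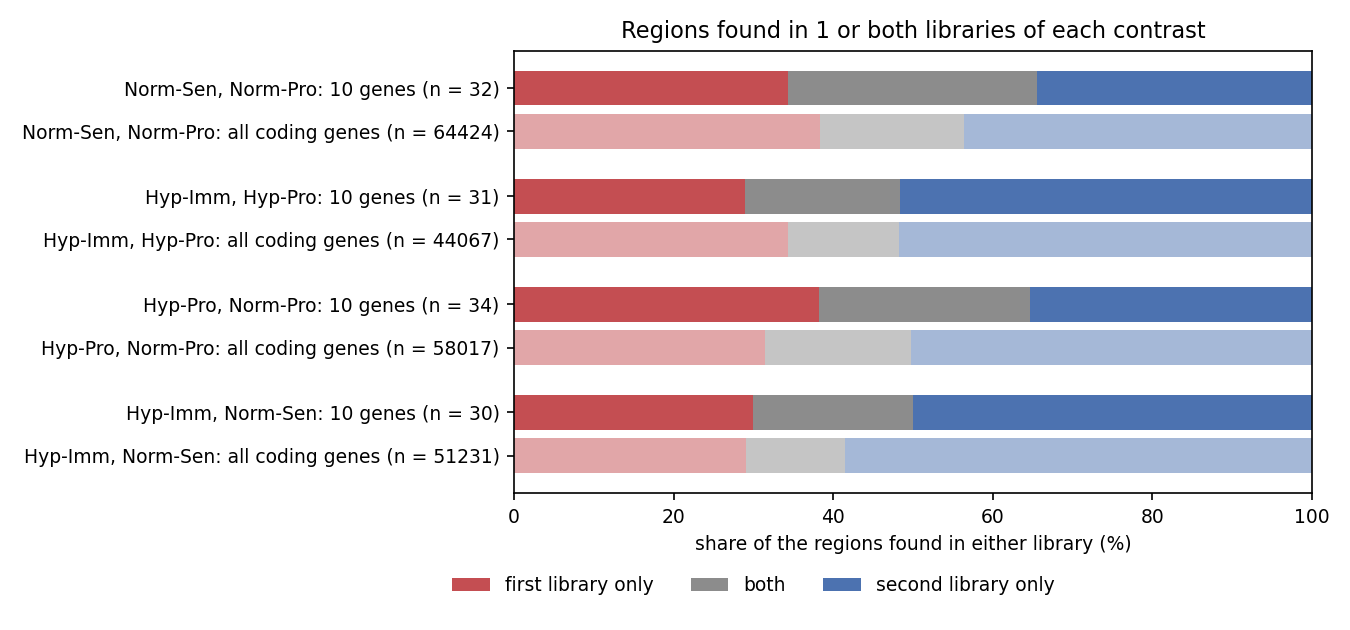
Share of the regions found in either library of a contrast (x axis, %) that were in the first-named library only, in both or in the second only, for the 10 genes (full colour) and for all protein-coding genes (pale). The largest gap is at passage 1, where 35.3% of the regions of the 10 genes against 50.2% of all regions were in Norm-Pro and not Hyp-Pro.

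To set libraries of unequal depth side by side, reads at the summit were divided by a scale for each library, the median of ratios over the 5270 regions found in all 4 libraries (1.21 for Norm-Pro, 1.32 for Norm-Sen, 1.03 for Hyp-Pro and 0.609 for Hyp-Imm). This scaling was chosen after the peak lists had been seen. The scaled reads of the *Hif1a* promoter were 30.6 in Norm-Pro and 27.3 in Norm-Sen, and 16.6 in Hyp-Pro and 27.9 in Hyp-Imm. Hyp-Pro was thus the lowest, and the other 3 lay between 27.3 and 30.6.

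At passage 1 the *Hif1a* promoter was lower in Hyp-Pro than in Norm-Pro by a log2 difference of -0.89 (exact 95% counting interval -1.81 to -0.02), at the 1.60 percentile of the shared regions, whose 10th and 90th percentiles were -0.53 and 0.53. Its log2 difference from Hyp-Pro to Hyp-Imm was 0.75 (-0.31 to 1.81), at the 95.9 percentile. From Norm-Pro to Norm-Sen it was -0.16 (-0.87 to 0.54). Of its 4 contrasts only that at passage 1 had an interval without 0, which covers counting error and not the spread between cultures. Scaled by the genome background instead, that contrast was -0.75 (-1.67 to 0.12), and the one from Hyp-Pro to Hyp-Imm was 1.10 (0.04 to 2.16), so that which interval lay off 0 depended on the scale.

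For *Arnt* the scaled reads were 14.9, 22.0, 17.5 and 14.8 in the order of the labels. The log2 difference of Norm-Sen from Norm-Pro was 0.56, at the 93.7 percentile, and that of Hyp-Imm from Norm-Sen was -0.58, and both intervals held 0. For *Egln3* the scaled reads were 17.4, 15.2, 13.6 and 13.1, and its 4 differences lay between -0.35 and -0.05, each with an interval that held 0. The order of the libraries at these promoters could thus not be told at this depth.

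**Figure D4:**
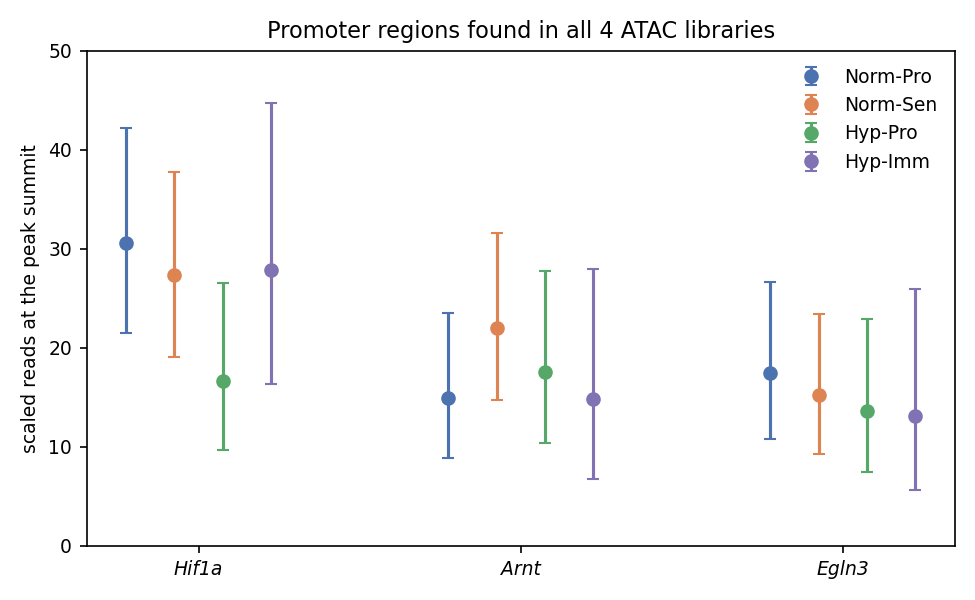
Scaled reads at the summit (y axis) of the 3 promoter regions found in all 4 ATAC-seq libraries, with exact 95% Poisson intervals divided by the scale of the library. The *Hif1a* point of Hyp-Pro (16.6) lies below its other 3 points (27.3 to 30.6), and the intervals of the 4 libraries overlap at all 3 promoters.

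For the promoters missing from Hyp-Imm, the reads expected there were set beside the reads at promoters that were called. From the mean scaled level elsewhere, 10.9 reads would be expected in Hyp-Imm at *Egln1*, 8.87 at *Epas1* and 6.91 at *Vhl*, where 4 is the fewest called at genome background. The *Egln3* promoter was called there with 8 reads and that of *Hif1an* with 6. The local background at the missing promoters in Hyp-Imm is not in the list, so how many reads a call there needed is not known. The expected reads come only from libraries with a peak, so they lean high. By genome background the scale of Hyp-Imm was 0.453 and not 0.609. Reads expected at that scale would be lower and were not computed. In Hyp-Pro the local background was 2.62 reads at *Egln1*, 2.42 at *Epas1* and 1.60 at *Vhl*. At the promoters that Hyp-Imm had, the Hyp-Pro values were 1.71 (*Hif1a*), 1.68 (*Arnt2*), 1.44 (*Egln3*), 1.37 (*Hif1an*) and 1.19 (*Arnt*). The part of local background and of depth in the missing peaks was not tested.

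Of the 50 regions 17 held the core ACGTG or GCGTG (34.0%, against 19.7% of all regions), 9 of the 17 promoter regions (52.9%, against 47.3% of all promoter regions) and 8 of the other 33 (24.2%, against 14.3%). The regions of the 10 genes were wider, with a median of 129 bp against 114 bp, and richer in GC, 57.1% against 53.9%, whose part in the count was not tested. In 200 bp around the centre, where width is equal, 17 held it as well (34.0%, against 24.3%). Promoter regions were 17 of these 50 regions, against 27533 of 170337 regions in all. At this width the core was in 52.9% of the promoter regions, against 47.2% of all promoter regions. For the other regions the shares were 24.2% and 19.9%. ACGTG alone was in 9 (18.0%, against 8.21%).

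In RefSeq promoters of 300 bases (GRCm38), which held 10 windows of 9 of the genes and not *Epas1*, 7 windows held the core (70.0%, against 43.8% of 32851). Both windows of *Egln2* were among them, so that fewer genes than windows held it. The windows of these genes were richer in GC, with a median of 63.2% against 52.7%. They were also richer in CpG dinucleotides, and the core itself holds a CpG. The part of GC and CpG content in the count was not tested. The window at the 5′ end of *Egln2* held it 6 times and that of *Hif1a* 3 times, and those of *Vhl*, *Arnt2* and *Hif1an* did not hold it. Its presence did not follow the number of libraries: *Egln3* and *Arnt* had 1 each and *Egln2*, open in 1 library, the most.

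Tfcp2l1 peaks lay near 2 of the 10 genes, both in ChIP Hyp. ChIP Norm had none within 200 kb (0 of 10, exact interval 0 to 30.8%, against 8.48% of all genes), and ChIP Hyp had peaks near *Hif1a* and *Hif3a* (20.0%, 2.52 to 55.6, against 12.4%). The peak near *Hif1a* lies 157.8 kb upstream of it, inside *Prkch*, a protein kinase C gene, and that near *Hif3a* lies 111.7 kb beyond the nearest *Hif3a* start, in the direction of transcription and 5.7 kb from the start of *Pnmal2*. They are shown on the plus strand, chr12:73743476-73743657 (182 bp) and chr7:16938865-16939032 (168 bp), as the 2 bound sites assigned to these genes.
Hif1a ChIP Hyp: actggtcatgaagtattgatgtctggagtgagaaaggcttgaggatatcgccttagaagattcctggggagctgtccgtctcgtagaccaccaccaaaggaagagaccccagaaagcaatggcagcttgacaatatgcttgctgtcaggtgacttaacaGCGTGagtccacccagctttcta
Hif3a ChIP Hyp: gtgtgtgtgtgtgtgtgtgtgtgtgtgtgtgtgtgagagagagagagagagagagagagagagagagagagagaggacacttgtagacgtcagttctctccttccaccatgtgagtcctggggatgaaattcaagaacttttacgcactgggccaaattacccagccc

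The *Hif1a* peak had a fold of 7.39 and a −log10 q of 6.65, with 8 reads at its summit (exact 95% Poisson interval 3.45 to 15.8), and ranked 203rd of 612 by fold. The *Hif3a* peak had a fold of 5.59 and a −log10 q of 3.62, with 6 reads (2.20 to 13.1), and ranked 494th. It was thus in the weaker part of its list, and 73.8% of its bases are masked as repeats, as the GT and GA runs at its start show. Neither overlapped a peak of any ATAC-seq library or lay within 1 kb of a peak of ChIP Norm. Within 200 kb of the *Hif3a* peak lie the starts of 16 protein-coding genes, and of the *Hif1a* peak those of 4, so that neither is tied to the gene by distance alone. The 8 other genes had their nearest ChIP Hyp peak between 694.3 kb (*Hif1an*) and 4797.3 kb (*Arnt2*) away.

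Among 28 related genes, too, Hyp-Imm had the fewest promoter peaks, as it had over all genes. They were 7 genes grouped with the ligases, 6 cofactors or antagonists of HIF, 11 other genes of the bHLH-PAS family and 4 other prolyl 4-hydroxylases. Not all of them sense oxygen. Of these 28 genes, 25 had a promoter peak in Norm-Pro and 24 in Norm-Sen, and 25 in Hyp-Pro and 19 in Hyp-Imm. In all 4 libraries 15 had one, and each of these counts was above the share of all genes given above. All 6 genes listed as cofactors or antagonists of HIF had one in Norm-Sen and in Hyp-Pro, and *Ep300*, *Crebbp*, *Ncoa1*, *Cited2* and *Os9* in every library. Of this group only *Cited4* lacked it, in Norm-Pro and Hyp-Imm.

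Of the 7 genes grouped with the ligases, *Elob*, the elongin B of the Vhl complex, lacked a promoter peak in Hyp-Imm, and *Cul2*, its cullin, in Hyp-Pro and Hyp-Imm. The collagen prolyl hydroxylase *P4ha3* and *P4htm*, a transmembrane hydroxylase, lacked it in Hyp-Imm, whereas *P4ha1* and *P4ha2* had it throughout. Among 11 other bHLH-PAS genes, the family of the HIF subunits, *Ahr* and *Arntl2* lacked it in Hyp-Imm, *Ahrr* and *Npas1* in Norm-Sen, *Npas2* in both, *Npas3* in Norm-Pro, *Sim2* in Hyp-Pro and *Npas4*, a neuronal activity gene, in all 4. In all, 5 of the 28 were open in every library but Hyp-Imm, beside 3 of the 10, against 12.1% of all genes.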

How the data were processed

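Peak lists of 4 ATAC-seq and 2 ChIP-seq libraries were used, with groups from the labels. The members and gene lists were chosen with earlier results of these data known. The authors mapped ATAC-seq reads to GRCm38 (mm10) by Bowtie2, dropped distant pairs, corrected read starts for the Tn5 cut and called peaks in each library by MACS2, with a false discovery rate below 0.05. For ChIP-seq, Bowtie and MACS2 are named in the submitters' processing notes, no source used here gives the build, and all peaks fall within the GRCm38 chromosomes. As deposited, the fold enrichment is the ratio of reads at the summit to local background, and −log10 p and −log10 q are those of the summit, all made by the authors through MACS2. The lists hold no reads, so the study's test on split reads was not repeated.

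Reads at the summit (n) and the local background were solved from fold and p, taking fold as the ratio of both after adding 1 and p from the Poisson distribution, with n whole within 0.001; this was tested on simulated data. In Hyp-Imm 209 peaks, and in ChIP Hyp 1, had no solution, none of them at these genes. Pileup reads are not independent molecules, so intervals cover counting error only. Genes and TSS are of GENCODE vM21, with 1 gene per symbol. Peaks that touched formed 1 region, present in each library with a peak in it. Shares carry exact Clopper-Pearson intervals and reads exact Poisson intervals at 95%. Expected reads are the mean scaled reads of the libraries with the region times the scale of the library without it. They leave out libraries without a peak and so lean high. Every member is named. Of the related genes, those without a promoter peak in at least 1 library are named, with others as examples. Python 3.11.15, pandas 2.3.3, scipy 1.17.1 and samtools 1.23.1 were used. Alternatives covered an equal number of peaks per library, −log10 q minimums, distances, overlap, ranking, the motif and the conditions by file name.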

Additional observations from a re-analysis of the deposited data

Results flagged for a closer look

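At 2 of the 3 promoters found in every ATAC-seq library, the difference between late and early culture had opposite signs at the 2 oxygen levels, each from 1 library against 1, and the difference between the oxygen levels was not tested. On the log2 scale of scaled summit reads, the *Hif1a* promoter differed by -0.16 from Norm-Pro to Norm-Sen and by 0.75 from Hyp-Pro to Hyp-Imm. The *Arnt* promoter differed by 0.56 from Norm-Pro to Norm-Sen and by -0.25 from Hyp-Pro to Hyp-Imm. All 4 counting intervals held 0. Scaled by the genome background, the signs were no longer opposite at *Arnt* (0.17 and 0.10), and at *Hif1a* they were -0.55 and 1.10, the latter with an interval of 0.04 to 2.16. With conditions taken from the names of the files, the signs were no longer opposite at either promoter.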

How the results depend on the processing

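With the 37770 peaks of highest −log10 q from each library, all 23 results computed so stayed within 1.5 times, as did all 12 for the gene body alone and all 12 with 10 kb on either side, and the promoter counts within 500 bp, within 2 kb and at the 5′ end alone. At a −log10 q of at least 5 the promoter counts were 4 of 10 in Norm-Sen (against 32.3% of all genes), 5 in Hyp-Pro (against 30.0%), 1 in Hyp-Imm (against 11.5%) and 1 in all 4 libraries, the *Hif1a* promoter, and the peaks were 9, 4, 6 and 1 in the order of the labels. Regions in 1 library then fell to 6 and those in all 4 to 1, which was also their number when a peak had to cover 50% of the region. The counts in 1 library of a contrast at that minimum were 0 (Norm-Sen, not Norm-Pro) and 5, 0 (Hyp-Imm, not Hyp-Pro) and 5, 2 (Hyp-Pro, not Norm-Pro) and 5, and 0 (Hyp-Imm, not Norm-Sen) and 3. Shares of all regions at that minimum or overlap, and of all genes open in all 4 libraries, were not computed. At that minimum the lists held 13663, 13571, 11761 and 4171 peaks in the order of the labels, fewest in Hyp-Imm. Of the related genes 13 in Hyp-Pro and 7 in Hyp-Imm then had a promoter peak.

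By the names of the files, the promoter counts were 5 for Norm-Sen and 9 for Hyp-Imm, and 15 regions were in Hyp-Imm and not Norm-Sen against 9 the other way. Within 500 kb, 1 of the 10 genes, *Hif1an*, had a ChIP Norm peak (against 17.1% of all genes). Within 100 kb (against 6.97%), or at a −log10 q of at least 10 (against 3.51%), 0 genes had a ChIP Hyp peak. With ACGTG alone 9 regions held the core. Scaled by genome background, the log2 differences of *Arnt* turned to 0.10 (Hyp-Imm minus Hyp-Pro) and 0.30 (Hyp-Imm minus Norm-Sen) and those of *Egln3* to 0.30 and 0.67, and that of *Hif1a* for Hyp-Imm minus Norm-Sen moved to 0.91. By the file names they turned for *Hif1a* to 0.75 (Norm-Sen minus Norm-Pro) and 0.72 (Hyp-Pro minus Norm-Pro), for *Arnt* to -0.24 (Norm-Sen minus Norm-Pro) and 0.01 (Hyp-Imm minus Norm-Sen), and for *Egln3* to 0.20 (Hyp-Imm minus Hyp-Pro), 0.16 (Hyp-Pro minus Norm-Pro) and 0.41 (Hyp-Imm minus Norm-Sen). The causes were not tested. No paired analysis was possible because each condition has 1 library and no result comes from a test.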
